A study of Homo sapiens with 6 samples.

Results

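NBPF genes (neuroblastoma breakpoint family) were followed in U87-MG cells, a human glioblastoma line, as the 10 rows of the deposited table whose symbols are NBPF1, NBPF3, NBPF9, NBPF10, NBPF11, NBPF12, NBPF14, NBPF15, NBPF19 and NBPF26. The table held 61806 gene rows, 23 of them with an NBPF symbol. The 10 members were chosen because several of them stood above the controls in the GRIK1 siRNA libraries. Their levels and changes in this comparison are therefore a description of the selected rows, and no test was made on them. The series compared 3 libraries of U87-MG cells given a negative control (NC) with 3 libraries of the same line labelled GRIK1 siRNA, to ask what follows from knocking down GRIK1, a kainate-type glutamate receptor subunit. The genotype labels were wildtype and GRIK1 knockdown. The sample titles named siRNA, the design text named shRNA, and the labels did not say whether the numbers 1 to 3 were replicates of one siRNA or different siRNAs. The study states that its most efficient siRNA was the one carried into later experiments, without naming these libraries. No time after transfection was given.

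NBPF proteins are built from repeated Olduvai domains, formerly called DUF1220, whose copies multiplied strongly in the lineage leading to humans. Most members lie in the segmental duplications around the centromere of chromosome 1 and in band 1q21, where gains and losses have been linked to differences in head size. NBPF1, on the short arm, was found at a translocation breakpoint in neuroblastoma and gave the family its name. The cellular role of most single members is poorly known, and their near-identical copies make reads hard to place.

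The repeats were visible in the coding sequence. In GENCODE 29 transcripts of build GRCh38, the 100-base coding stretch with the most exact copies over all NBPF rows occurred 51 times, in 8 rows. It occurred 22 times in NBPF20, a row with an NBPF symbol that is no member, 12 times in NBPF10, 8 times in NBPF14, 2 times each in NBPF9, NBPF12, NBPF19 and NBPF26, and 1 time in NBPF15. NBPF1, NBPF3 and NBPF11 had no exact copy. Copies were counted in the longest coding transcript of each row. For NBPF19 that transcript had 3670 bases, against 14047 exonic bases in the deposited row. The closest copies are shown with NBPF14 as the reference, since they show how far the members agree in their most repeated stretch. Capitals mark bases that differ from the reference.
NBPF14: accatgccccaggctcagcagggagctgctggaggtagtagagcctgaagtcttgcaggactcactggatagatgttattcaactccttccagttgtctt
NBPF12: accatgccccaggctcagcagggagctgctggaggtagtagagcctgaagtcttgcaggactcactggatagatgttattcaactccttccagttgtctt
NBPF1: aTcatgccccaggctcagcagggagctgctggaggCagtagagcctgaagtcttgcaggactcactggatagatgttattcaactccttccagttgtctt
NBPF3: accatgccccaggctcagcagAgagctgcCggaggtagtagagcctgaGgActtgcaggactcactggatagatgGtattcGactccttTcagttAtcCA
NBPF11: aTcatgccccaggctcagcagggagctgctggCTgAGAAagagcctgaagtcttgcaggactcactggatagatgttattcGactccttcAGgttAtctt

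In each of the 13 NBPF rows with a coding transcript, the first 12 bases of the closest copy closed one exon and the other 88 opened the next. Only the first of the closest copies in each row was placed. In NBPF4 and NBPF6, which are no members, that copy had 32 mismatches. The NBPF14 copy came from exon 18 (chr1:148574878-148574889) and exon 19 (chr1:148574138-148574225) of 71 exons, on the minus strand. The NBPF12 copy came from exons 27 (chr1:146987274-146987285) and 28 (chr1:146987954-146988041) on the plus strand. The NBPF1 copy, with 2 mismatches, came from exons 26 (chr1:16566408-16566419) and 27 (chr1:16565718-16565805) on the minus strand. The NBPF3 copy, with 10 mismatches, came from exons 12 (chr1:21480970-21480981) and 13 (chr1:21481597-21481684) on the plus strand. The NBPF11 copy, with 11 mismatches, came from exons 16 (chr1:148107711-148107722) and 17 (chr1:148107027-148107114) on the minus strand. The stretch was therefore fully coding and crossed a splice junction in every row shown.

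Repetition within a single coding sequence differed as much. In the longest coding transcript of each gene, 74.4% of the 100-base stretches of NBPF10 and 68.7% of those of NBPF14 occurred more than once within the same transcript. The share was 49.5% for NBPF19, 41.3% for NBPF12, 34.4% for NBPF1, 27.8% for NBPF26, 17.6% for NBPF9 and 11.5% for NBPF11. It was 0 for NBPF3 and NBPF15. In NBPF10, NBPF12, NBPF14 and NBPF26 the commonest distance between repeats was 732 bases.

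Copies between genes limited what a count on one row can mean. Of the distinct 100-base stretches in their annotated transcripts, NBPF10 had 23.1% in no other gene and NBPF14 29.7%, the lowest shares among the members. NBPF19 had 38.6%, NBPF11 45.1%, NBPF12 52.3%, NBPF26 53.1%, NBPF15 53.8% and NBPF9 64.6%. NBPF1 with 91.5% and NBPF3 with 96.2% stood apart, both lying on the short arm away from the centromere. With stretches of 50 and 150 bases the shares were 13.2% and 32.3% for NBPF10 and 85.9% and 98.7% for NBPF3. NBPF10 shared 61.8% of its stretches with NBPF14, NBPF19 shared 43.4% with NBPF14, and NBPF11 shared 41.1% with NBPF12. Outside the family, 34.6% of the NBPF10 stretches and 25.3% of the NBPF14 stretches also occurred in AC239799.1, a gene of the GENCODE 29 annotation with no NBPF symbol. How the counting treated reads that fit several copies is not given in the sources used here, so the split of reads between these rows is uncertain, and reads from such outside copies can fall out of a sum over NBPF rows.

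**Figure D1:**
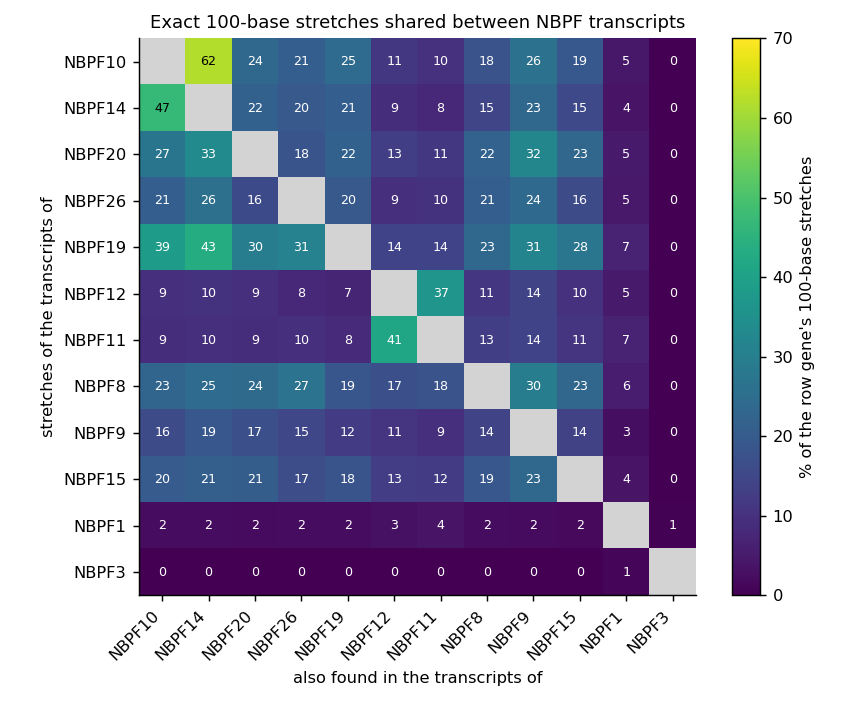
Percentage of the distinct 100-base transcript stretches of one gene (rows) that also occurred in the transcripts of another (columns), for the 10 members and the non-members NBPF20 and NBPF8, with the diagonal left grey. NBPF10 with NBPF14 (61.8%) shares most, followed by NBPF14 with NBPF10, NBPF19 with NBPF14 (43.4%) and NBPF11 with NBPF12 (41.1%), and NBPF3 shared almost nothing with the rest.

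The deposited rows also differed in where they began. NBPF10, NBPF14 and NBPF26 each had a deposited 5′ end within 21, 4 and 4 bases of the RefSeq start of a NOTCH2NL gene on the same strand, namely NOTCH2NLA, NOTCH2NLB and NOTCH2NLR. NOTCH2NL genes are partial human copies of NOTCH2 that act on Notch signalling in cortical progenitors. The RefSeq starts under the names NBPF10 and NBPF14 lay 84196 and 83731 bases further downstream. The NOTCH2NL rows covered 50.4% of the NBPF10 span, 53.6% of the NBPF14 span and 60.0% of the NBPF26 span. NBPF19 lay wholly within a longer row on its strand, ENSG00000286185. NBPF19 and the other 6 members had deposited 5′ ends between 0 and 41 bases from the RefSeq start of their own symbol.

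The 120 bases before these starts are shown for one row of each kind of start and for its closest copy, from RefSeq on GRCh38.p14, with CG pairs in capitals. RefSeq windows were matched for 9 of the 10 members, NBPF26 being the exception. The NOTCH2NLB window (chr1:148679747-148679866, minus) is that of the deposited NBPF14 start, and the NBPF10 window (chr1:146144805-146144924, minus) that of the downstream RefSeq start. The NBPF11 (chr1:148152282-148152401, minus) and NBPF12 (chr1:146938204-146938323, plus) windows are near copies, as are those of NBPF9 (chr1:149103552-149103671, minus) and NBPF15 (chr1:144461670-144461789, minus). NBPF1 (chr1:16613565-16613684, minus) stands for the short-arm pair.
NOTCH2NLB: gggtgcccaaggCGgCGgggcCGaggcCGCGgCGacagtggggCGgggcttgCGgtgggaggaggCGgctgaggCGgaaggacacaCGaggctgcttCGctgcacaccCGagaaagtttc
NBPF10: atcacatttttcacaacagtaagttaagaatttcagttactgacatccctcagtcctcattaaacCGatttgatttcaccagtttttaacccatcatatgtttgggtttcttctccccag
NBPF11: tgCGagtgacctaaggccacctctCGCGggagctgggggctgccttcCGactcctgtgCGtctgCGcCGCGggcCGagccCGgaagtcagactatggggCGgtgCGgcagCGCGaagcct
NBPF12: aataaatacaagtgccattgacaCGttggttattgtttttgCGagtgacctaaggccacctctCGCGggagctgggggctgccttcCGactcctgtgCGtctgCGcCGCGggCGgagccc
NBPF9: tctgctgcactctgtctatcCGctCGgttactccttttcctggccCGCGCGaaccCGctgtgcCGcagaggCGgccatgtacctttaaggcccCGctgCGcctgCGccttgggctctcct
NBPF15: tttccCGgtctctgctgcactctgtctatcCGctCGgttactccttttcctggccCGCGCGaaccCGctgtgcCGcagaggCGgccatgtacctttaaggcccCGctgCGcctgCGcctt
NBPF1: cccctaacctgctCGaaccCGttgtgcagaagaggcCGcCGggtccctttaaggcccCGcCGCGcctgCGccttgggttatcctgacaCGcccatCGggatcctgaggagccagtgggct

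Over 250 bases before the start, the NOTCH2NLB window at the deposited NBPF14 start was 71.6% G or C with 29 CG pairs. The other RefSeq start of NOTCH2NLB, further upstream, had 49.6% and 0 CG pairs. The medians over 35116 RefSeq promoters were 58.0% and 11 CG pairs. Like the NOTCH2NLB window shown, NBPF1 (65.6%, 20 CG pairs), NBPF3 (67.2%, 20), NBPF15 (62.4%, 17) and NBPF9 (61.6%, 16) were above both medians. NBPF11 (48.4%, 16) and NBPF12 (44.0%, 11) were below the median in G and C. NBPF10 held 3 CG pairs at its downstream start and NBPF19 held 1. Where the windows overlapped, NBPF9 and NBPF15 were 99.2% identical over 240 bases, NBPF11 and NBPF12 99.1% over 211 bases, and NBPF10 and the further downstream of 2 NBPF14 starts 99.5% over 215 bases. NBPF1 and NBPF3 were 90.3% identical over 226 bases. The letters TATAAA, searched on both strands over the 250 bases, were found before NBPF11, NBPF12 and NBPF19, and before 10.7% of all promoters in the table.

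The 6 libraries held 11099909 to 14006968 counts on genes. GRIK1 itself had 18, 9 and 8 counts in NC and 15, 20 and 20 where the labels name GRIK1 siRNA. In FPKM it was at 0.38, 0.19 and 0.13 against 0.29, 0.37 and 0.36. The groups overlapped on both scales, with no lower level seen in the libraries labelled as the knockdown. These counts thus show no knockdown of GRIK1 mRNA in these libraries. GRIK1 was too low to be among the genes tested, so its difference was not tested, and protein was not measured in these libraries. The study reports efficient knockdown of GRIK1 in U87-MG cells, without naming these libraries. Libraries were scaled by TMM (trimmed mean of M values) and expressed as CPM, counts scaled to the size of the library. NC replicate 3 stood apart from the other 5 libraries, with 8.45% of its counts on ribosomal protein genes against 4.35% to 4.99%. The common dispersion of the counts was 0.0391 with it and 0.00298 without it, and values are given with and without this library. Of 8 markers of the U87-MG line, 7 were at 1 FPKM or more in every library, NES being the exception, and CDKN2A and CDKN2B, which the line lacks, were at 0.04 FPKM or less. Of 11 markers of immune, endothelial, neuronal and oligodendrocyte cells, 10 were under 1 FPKM in every library. Their summed level ran from 2.23 to 3.33 FPKM, mostly SNAP25.

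Per length of exon, NBPF11 was the highest member in both groups. The scale here is FPKM, fragments scaled to exon length and to library size, as deposited. It divides by all exonic bases of a row, also those shared with other rows. The order between rows that share sequence to different degrees is therefore uncertain in both groups. In NC libraries NBPF11 was at 5.10 ± 1.79 FPKM (SD, n = 3), NBPF12 at 3.46 ± 1.19 and NBPF9 at 2.68 ± 0.78, and the ranges of neighbouring members in this order overlapped. NBPF14 (1.47 ± 0.34), NBPF1 (1.37 ± 0.36) and NBPF26 (1.36 ± 0.30) followed below NBPF9 and overlapped each other. NBPF3 was at 0.753 ± 0.091 FPKM, NBPF10 at 0.430 ± 0.128, NBPF15 at 0.273 ± 0.099 and NBPF19 at 0.0267 ± 0.0153. The NBPF10 and NBPF15 ranges overlapped, and the others in this lower part of the order did not.

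In the GRIK1 siRNA libraries the order changed in its middle. NBPF11 (10.4 ± 0.52 FPKM), NBPF12 (8.80 ± 0.49) and NBPF14 (5.35 ± 0.17) came first, each clear of the next. NBPF9 (3.17 ± 0.11) and NBPF26 (2.90 ± 0.41) overlapped. NBPF10 (1.63 ± 0.16) and NBPF1 (1.60 ± 0.22) overlapped as well, so NBPF10 had moved from below NBPF3 to the level of NBPF1. NBPF3 (0.750 ± 0.079) and NBPF15 (0.697 ± 0.086) came next and NBPF19 (0.0367 ± 0.0153) was again lowest.

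Summed over the 10 members, the family took 2016, 1846 and 1443 counts in NC and 3913, 3865 and 4017 in GRIK1 siRNA libraries. In TMM-scaled CPM the sum was 179, 165 and 115 against 306, 297 and 296. All GRIK1 siRNA libraries lay above all NC libraries, and NC replicate 3 was the lowest. The ratio of the group means was 1.96-fold, a log2 ratio of 0.97, and 1.74-fold (0.80) without NC replicate 3. Over all 23 rows with an NBPF symbol it was 1.73-fold, and 1.53-fold without NC replicate 3. In bulk libraries, more RNA per cell and more cells with the RNA cannot be told apart.

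Of the 10 members, 6 had all GRIK1 siRNA libraries above all NC libraries in TMM-scaled CPM, namely NBPF10, NBPF11, NBPF12, NBPF14, NBPF15 and NBPF26. None had all below, and the groups of the other 4 overlapped. Over all 15870 genes tested, those with a mean FPKM of at least 0.5, the groups separated upward in 19.4%. Since the members were selected on this comparison, nothing is read from the share. The same 6 separated without NC replicate 3. All 6 lie on chromosome 1 among the 8 members that have deposited starts from 120723949 to 149475045, and both members on the distal short arm were among the 4 that overlapped.

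**Figure D2:**
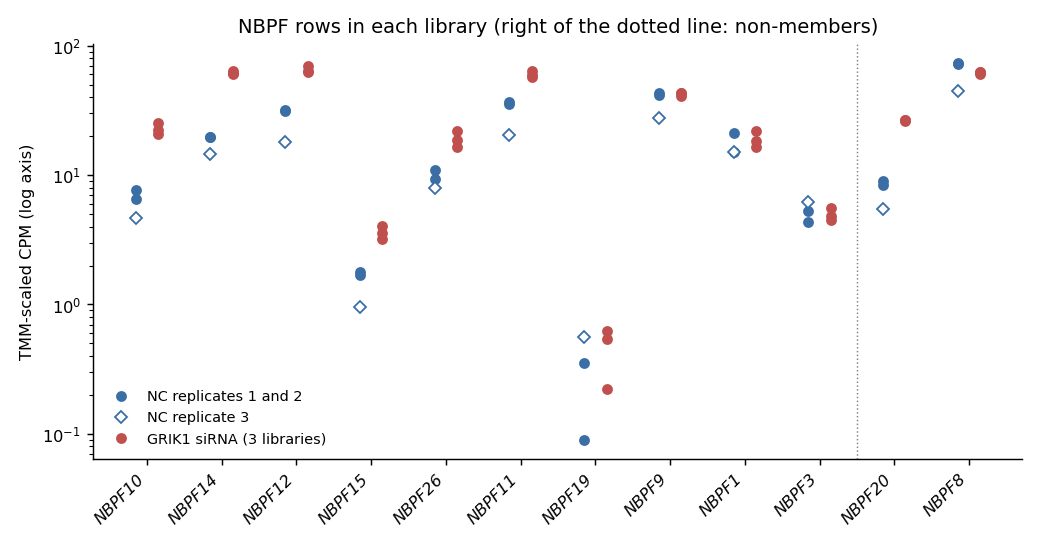
TMM-scaled CPM (log axis) of each NBPF row in each library, with NC libraries in blue, NC replicate 3 as an open diamond and GRIK1 siRNA libraries in red. For NBPF10, NBPF14, NBPF12, NBPF15, NBPF26 and NBPF11 the red points lie above all blue ones, and for NBPF19, NBPF9, NBPF1 and NBPF3 the groups overlap.

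NBPF10 and NBPF14, the pair of members that shared most sequence, differed most between the groups. NBPF10 was at 7.62, 6.52 and 4.64 CPM in the NC libraries and at 25.1, 22.3 and 20.6 CPM in the GRIK1 siRNA libraries. Its lowest GRIK1 siRNA library was thus well over any NC library. The fitted change was 3.62-fold, a log2 fold change of 1.86 (SE 0.20), and 1.68 (SE 0.14) without NC replicate 3. NBPF14 was at 19.8, 19.6 and 14.5 CPM against 64.3, 61.8 and 60.6 CPM, 3.47-fold higher. The groups did not overlap, and the log2 fold change was 1.80 (SE 0.15), or 1.66 (SE 0.08) without NC replicate 3. Raw counts ran from 58 to 86 against 280 to 321 for NBPF10 and from 181 to 223 against 805 to 823 for NBPF14.

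NBPF20, which is not a member and carries the most copies of the coding stretch above, followed the same course. It was at 8.33, 9.02 and 5.44 CPM in NC and at 26.7, 26.6 and 26.4 CPM in GRIK1 siRNA libraries, a log2 fold change of 1.81 (SE 0.20), and 1.62 without NC replicate 3. NBPF10, NBPF14 and NBPF20 summed went from 403, 393 and 307 counts to 1486, 1442 and 1461, which was 3.51-fold in scaled means. The sum shows a difference of the same size as each of the 3 rows, which share 100-base stretches with one another.

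NBPF12 and NBPF11, each of which shared more sequence with the other than with any other row, were also the members with the highest FPKM. NBPF12 was at 31.7, 31.2 and 17.9 CPM in NC and at 69.4, 63.1 and 63.7 CPM in GRIK1 siRNA libraries. The log2 fold change was 1.28 (SE 0.22), and 1.06 (SE 0.08) without NC replicate 3. NBPF11 was at 36.8, 35.2 and 20.2 CPM against 59.4, 57.1 and 63.3 CPM. Its log2 fold change was 0.96 (SE 0.22), and 0.74 (SE 0.08) without NC replicate 3. In both genes NC replicate 3 was far below the other 2 controls, which lay close together, and the groups stayed apart without it. Their sum differed 2.17-fold, and 1.86-fold without NC replicate 3.

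NBPF26, the third row that begins at a NOTCH2NL start, was at 10.99, 9.29 and 8.001 CPM in NC and at 18.8, 21.8 and 16.6 CPM in GRIK1 siRNA libraries. The groups did not overlap, and the log2 fold change was 1.02 (SE 0.18), or 0.91 (SE 0.14) without NC replicate 3. NBPF15 had 19, 20 and 12 counts in NC and 41, 53 and 48 in GRIK1 siRNA libraries, which did not overlap either in CPM. With a mean of 0.485 FPKM it fell below the filter, and the fit without a filter gave a log2 fold change of 1.27 (SE 0.33). The log2 ratio of its mean CPM without NC replicate 3 was 1.05. NBPF9, whose window before its start was nearly identical to that of NBPF15, had overlapping groups. NBPF15 had only 12 to 53 counts per library, and what sets these rows apart was not tested.

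NBPF9 was at 43.2, 41.8 and 27.4 CPM in NC and at 43.0, 43.2 and 40.7 CPM in GRIK1 siRNA libraries. NC replicates 1 and 2 were at the level of the GRIK1 siRNA libraries, so that the log2 fold change of 0.18 (SE 0.18) became -0.0049 (SE 0.076) without NC replicate 3. NBPF8, no member, resembled NBPF9 with 73.7, 72.0 and 44.8 CPM against 60.7, 63.1 and 62.3 CPM, a log2 fold change of -0.03 (SE 0.19). Without NC replicate 3 it was -0.23 (SE 0.06), and all its GRIK1 siRNA libraries then lay below both controls. For NBPF8 the separation of the groups thus rested on which control libraries were kept.

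NBPF1 was at 21.3, 15.1 and 14.96 CPM in NC and at 16.5, 18.4 and 21.9 CPM in GRIK1 siRNA libraries, with overlapping groups and a log2 fold change of 0.15 (SE 0.19), or 0.06 (SE 0.14) without NC replicate 3. Leaving out other single libraries moved it between 0.03 and 0.33. NBPF3 was at 5.32, 4.38 and 6.24 CPM against 5.55, 4.53 and 4.79 CPM. Its log2 fold change of -0.10 (SE 0.21) became 0.03 (SE 0.20) without NC replicate 3. These 2 members, whose transcripts share the least sequence with other genes, showed no difference beyond the spread of their libraries. NBPF19, below the filter, had 4, 1 and 7 counts against 8, 7 and 3, and no difference was detectable at this depth.

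**Figure D3:**
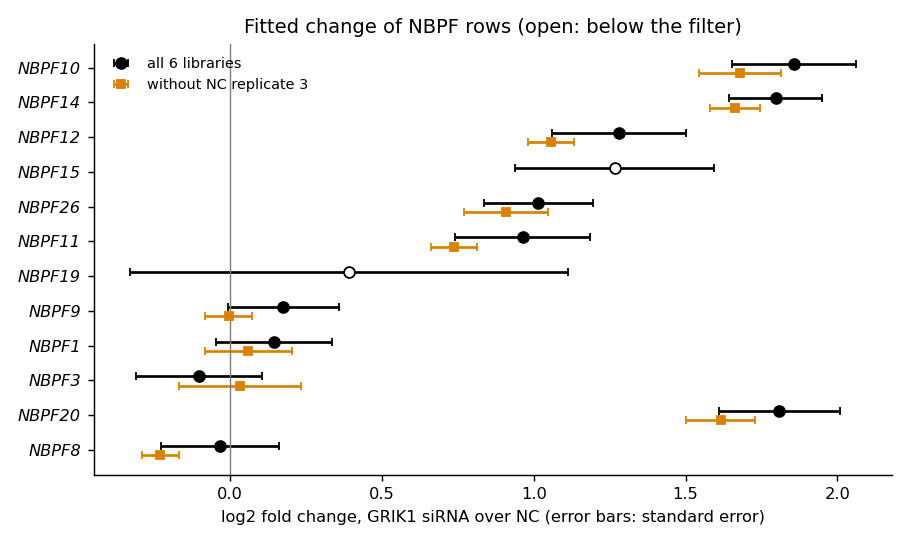
Fitted log2 fold change of GRIK1 siRNA over NC libraries for each NBPF row, with standard errors, over all 6 libraries (black) and without NC replicate 3 (orange), and open circles for the 2 members below the filter. Leaving out NC replicate 3 moved NBPF10 from 1.86 to 1.68 and NBPF11 from 0.96 to 0.74, and brought NBPF9 to -0.0049.

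NC replicate 3 was the lowest of the controls for 8 of the 10 members and the highest for NBPF3 and NBPF19. The part of this library in the size of the changes is given by the values without it, and what set it apart was not tested. Set beside the sequence features, the rows with the most copies of the coding stretch (NBPF20, NBPF10 and NBPF14, with 22, 12 and 8) had log2 fold changes of 1.81, 1.86 and 1.80. The rows with 1 or 2 copies ranged from 0.18 for NBPF9 to 1.28 for NBPF12. The rows with none ranged from -0.10 for NBPF3 to 0.96 for NBPF11. NBPF10 and NBPF14, the members with the largest changes, had 23.1% and 29.7% of their 100-base stretches in no other gene, the lowest shares among the members. NBPF1 (91.5%) and NBPF3 (96.2%) had the highest shares, with log2 fold changes of 0.15 and -0.10. NBPF8 (45.6%) and NBPF11 (45.1%) had similar shares, with log2 fold changes of -0.03 and 0.96. Whether shared reads had a part in the changes was not tested.

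The make-up of the family's counts differed accordingly. NBPF14 was 11.1%, 11.9% and 12.5% of the members' summed count in NC libraries and 21.03%, 20.8% and 20.5% in GRIK1 siRNA libraries. NBPF10 was 4.27%, 3.95% and 4.02% against 8.20%, 7.50% and 6.97%. In these shares, which do not depend on how libraries are scaled, NC replicate 3 was close to the other controls for both genes. NBPF9 went from a mean of 24.4% to 14.1%, NBPF1 from 11.3% to 6.32% and NBPF3 from 3.68% to 1.65%. NBPF12 went from 17.4% to 21.8%. NBPF11 with 19.8% and 20.01% and NBPF26 with 6.24% and 6.36% had shares that overlapped between the groups.

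**Figure D4:**
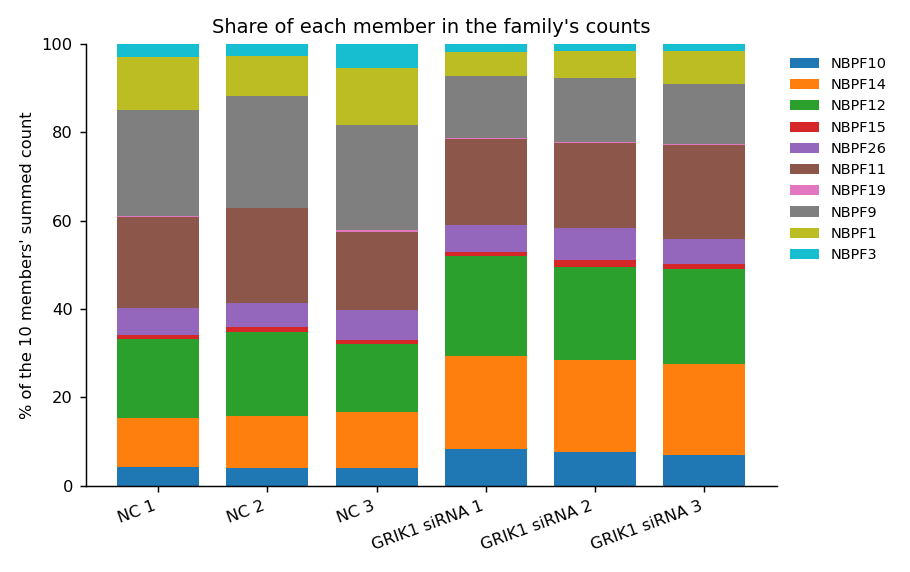
Percentage of the 10 members' summed count that fell on each member, 1 bar per library. NBPF10 and NBPF14 together widen in the 3 GRIK1 siRNA libraries while NBPF9, NBPF1 and NBPF3 narrow, and the 3 GRIK1 siRNA libraries resemble one another.

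Some rows lie over NBPF members. NOTCH2NLB, within NBPF14, had 60, 85 and 74 counts in NC and 104, 96 and 100 in GRIK1 siRNA libraries, a log2 fold change of 0.28 (SE 0.19) that did not pass the test (adjusted p = 0.378, edgeR's quasi-likelihood test with Benjamini-Hochberg adjustment over all genes tested). NOTCH2NLA, within NBPF10, had 18, 21 and 46 counts against 36, 27 and 37, and NOTCH2NLR, within NBPF26, had 7, 4 and 11 against 13, 12 and 4. Both were below the filter, and their groups overlapped in counts. Without NC replicate 3 the NOTCH2NLA counts of the groups no longer overlapped. The table gave a Notch receptor orthology term (K02599) and the pathway term for microRNAs in cancer to NBPF10, NBPF14 and NBPF26 and to no other NBPF row, the same 3 rows whose spans hold a NOTCH2NL gene. Reads from exons that both rows hold cannot be told apart.

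Duplicated neighbours of the NBPF genes, with partner copies elsewhere on chromosome 1, were taken as a list of 38 names, of which 16 were tested. The list holds the NOTCH2NL, SRGAP2 and FAM72 copies, PDE4DIP and others. A gene was called when its adjusted p was below 0.05 and its log2 change exceeded 1 either way, which held for 0.87% of the 15870 tested genes upward and for 0.542% downward. None of the 16 was called by edgeR or by DESeq2, and none had an unadjusted p under 0.05. Their median log2 fold change was 0.14 against -0.02 over all genes tested, and 0.08 against 0.01 without NC replicate 3. The largest differences were SRGAP2D (-0.71, SE 0.40, adjusted p = 0.297, edgeR), a copy of a gene acting in neuronal spines, and NOTCH2 (0.65, SE 0.29, adjusted p = 0.212, edgeR), the Notch receptor from which NOTCH2NL derives. Without NC replicate 3 these were -0.16 and 0.36 (adjusted p = 0.732 and 1.08e-05, edgeR), and the largest was GPR89B (0.79, adjusted p = 0.0017, edgeR), a Golgi pH regulator copy. None passed the limit on the size of the change. PDE4DIP, which itself contains an Olduvai domain and is regarded as the likely ancestor of that domain, had a log2 fold change of 0.12 (SE 0.11, adjusted p = 0.480, edgeR).

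Single-copy neighbours in the part of chromosome 1 that holds most NBPF members were a second list, with 40 of 49 tested. None was called by edgeR with all libraries, 10 of 40 had an unadjusted p under 0.05 beside 3987 of all 15870 genes, and DESeq2 called 1. The median log2 fold change was -0.04, and 18 of 40 were positive. The largest were CA14 (1.07, adjusted p = 0.110, edgeR), a carbonic anhydrase, and CTSK (-1.04, adjusted p = 0.112, edgeR), the lysosomal protease cathepsin K. NC replicate 3 held 11973 CTSK counts against 4598 and 4907 in the other controls, and without it the log2 fold change was -0.53. Without NC replicate 3, where 2.09% of all genes were called higher, CA14 was called with a log2 fold change of 1.34, on 12 and 16 counts in NC against 36, 34 and 55.

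Other families of near-identical copies were taken by the start of their symbols, which also drew in single genes such as TBC1D32. The NOTCH2NL rows of this list are also in the list of duplicated neighbours. In 25 of the 61 tested, all GRIK1 siRNA libraries lay above all NC libraries, which held for 19.4% of all genes tested. Of the 61, 51 had a positive log2 fold change, and the median was 0.47 against -0.02 over all genes tested. Without NC replicate 3 the median was 0.23, against 0.01 over all genes tested. SPDYE5 (1.49, SE 0.27, adjusted p = 0.0391, edgeR), of the Speedy family of CDK activators, and ANKRD36C (1.36, SE 0.23, adjusted p = 0.0366, edgeR), an ankyrin repeat gene, rose, and no other gene of the list was called. By family, the median was 1.05 over 3 ANKRD36 rows, 0.96 over 5 NPIPA rows and 0.83 over 4 SPDYE rows. It was 0.58 over 8 NPIPB rows and 0.02 over 3 GOLGA8 rows, and the 1 GTF2IRD2 row was at -0.45. Without NC replicate 3 these became 0.87, 0.56, 0.69, 0.17, -0.39 and -0.52. With all libraries the other families had medians between those of GOLGA8 and NPIPB. The families thus leaned on NC replicate 3 to different degrees.

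The last list was of RNAs taken as staying in the nucleus or keeping introns, with 20 of 23 tested. Neither their place in the cell nor their introns were measured here, and the name need not hold for each gene. ANKRD36C, which is in both lists, was the 1 gene called. The median was 0.11 with all libraries and -0.04 without NC replicate 3.

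**Figure D5:**
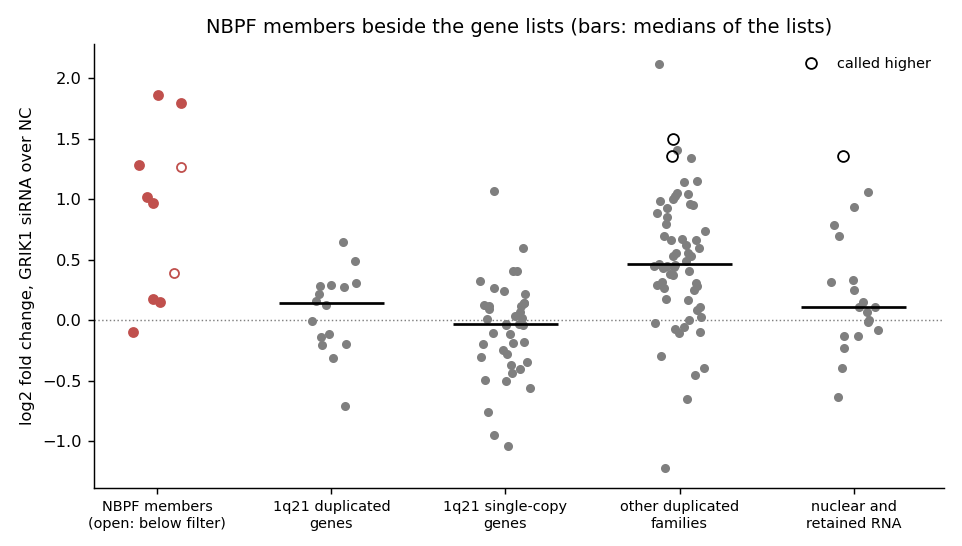
Log2 fold change of each NBPF member (red, open where below the filter) beside the genes of the 4 lists (grey), with list medians as bars and called genes as open black circles. The members range from -0.10 to 1.86, and the list medians are 0.14, -0.04, 0.47 and 0.11 from left to right.

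The genes whose level over the 6 libraries was most like the members' sum were PFKFB4, STK10, GCN1, DXO, NUP205, ADAM12, MUC1 and RERE, with Pearson's r of log2 CPM between 0.998 and 0.9997. All 8 were lowest in NC replicate 3, as the family was. PFKFB4, a regulator of glycolytic flux, was at 41.5, 35.9 and 22.8 CPM in NC and 82.7, 81.0 and 80.4 CPM in GRIK1 siRNA libraries. MUC1, a membrane mucin, had the largest log2 fold change of the 8 at 2.56 (SE 0.37), and NUP205, a nuclear pore protein, the smallest at 0.26 (SE 0.11). The 6 points share their libraries and fall into the 2 groups, and 762 of 15859 ranked genes (4.80%) reached an r over 0.95, so likeness of this kind was common.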

How the data were processed

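RNA of U87-MG cells was sequenced in 6 libraries, 3 NC and 3 GRIK1 siRNA, grouped by title. Per the submitters' processing notes, the authors used cutadapt 1.9.1, HISAT2 and HTSeq with GRCh38. The deposited table holds, per gene, the authors' raw count and FPKM for each library. All FPKM values (100%) equalled count / (exonic length × total count) within 0.0051. The HTSeq version, its strand setting and its treatment of reads with several alignments are not given in the sources used here. No column was left without a sample (0 columns).

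Counts were fitted with edgeR 4.0.16 (quasi-likelihood test, TMM scaling) in R 4.3.3 on 15870 genes with a mean FPKM of at least 0.5, with Benjamini-Hochberg adjustment. The call limits were 0.05 for the adjusted p and 1 for the size of the log2 fold change. For NBPF rows only the fitted change and a standard error (SE) were used. Each SE from edgeR was the size of the log2 fold change divided by the square root of the test's F statistic. It thus rests on a dispersion estimated with the help of all genes. For the selected members it is a description, from which no test is to be read. The study's methods name no test for these libraries. Alternatives were DESeq2 1.42.0, its size factors in edgeR, total count scaling, no filter, a mean FPKM of at least 1, a replicate block and leaving out each library. Fits were tested on simulated counts. Nothing says that the libraries came from separate cultures, so p-values measure the spread between these libraries, which may be technical. The members and lists were chosen with earlier results of these data known.

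Named genes were GRIK1, the members, other NBPF rows, the called genes of each list (otherwise its 2 largest changes) and the 8 genes most correlated with the members' sum. The NOTCH2NL rows over NBPF genes, PDE4DIP, GPR89B, AC239799.1, TBC1D32 and the symbol families were named after their values were seen. Transcript stretches of 50, 100 and 150 bases were compared exactly in GENCODE 29 (both strands outside NBPF rows), whose annotation is not known to be that of the deposited table. Promoters came from RefSeq (GRCh38.p14) and were aligned with biopython 1.88 under Python 3.11.15 (numpy 2.4.6, pandas 2.3.3). Counting error is the only error that depth sets here, and genome-wide matches and protein sequences were not used here.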

Additional observations from a re-analysis of the deposited data

How the results depend on the processing

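Among the 8 members above the filter, the fitted changes kept their direction under the 12 alternatives, except for NBPF3 and NBPF9, whose changes were near 0. NBPF15 and NBPF19 were fitted only without a filter. NBPF3 was positive in 1 of 11 settings and NBPF9 in 11 of 12, both turning without NC replicate 3. The log2 ratio of the members' sum ranged from 0.80 to 1.10 when each library was left out and from 0.95 to 1.04 under the other settings. Summing all NBPF rows (0.79) or the members and NBPF20 (1.02) was chosen after seeing the data. The number of members without overlap was 6 in all settings but 1, where leaving out NC replicate 1 gave 7.

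Calls over all genes were less stable than these values. Leaving out each library gave 0 to 332 genes called higher and 0 to 159 called lower, against 138 and 86. The upper values came without NC replicate 3, and leaving out any of the other 5 libraries gave 0 (edgeR), with 2241 to 4434 genes at an unadjusted p under 0.05. DESeq2 was not run on 5 libraries. The same omissions gave 0 to 1 calls in the single-copy neighbours, 0 to 1 in the nuclear and retained RNAs and 0 to 2 in the other duplicated families. Total count scaling gave 50 lower calls. Without a filter there were 448 higher and 216 lower calls, with 2, 3 and 10 in those lists. A mean FPKM of at least 1 left 1 call in the other duplicated families. DESeq2 called 339 higher and 160 lower, with 1, 2 and 5 in the lists. The cause of these differences was not tested.

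With the replicate block, 0 genes were called higher and 0 lower (edgeR, 3323 at an unadjusted p under 0.05), with 0 in the nuclear and retained RNAs and 0 in the other duplicated families. Whether the labels' numbers pair the samples is not known. The deviations of same-numbered libraries from their group means correlated at -0.026, 0.025 and -0.021. With NC replicate 3 far from the other controls, these values could not decide it. NBPF15 and NBPF19 are limited by depth, with at most 53 and 8 counts in a library.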

Other observations

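The 13 NBPF rows outside the members were mostly silent, with 7 at 0 counts in every library. NBPF2P, a pseudogene row beside NBPF3, had 10, 14 and 17 counts in NC libraries and 5, 4 and 7 in GRIK1 siRNA libraries. Its log2 fold change was -1.50 (SE 0.41), in the direction opposite to the members whose groups did not overlap. NBPF25P had 8, 5 and 8 counts against 15, 17 and 16, and NBPF21P had 1, 3 and 1 against 1, 6 and 9. NBPF17P had 3 counts in 1 GRIK1 siRNA library and 0 elsewhere. At these counts only differences of large size would be detectable, and the values are a description.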
